A study of Mus musculus with 8 samples.

Results

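The genes described here encode the kinases of the BRSK, MARK, SIK and SNRK families, which are relatives of NUAK1 within the AMPK-related group. The 10 members (Brsk1, Brsk2, Mark1, Mark2, Mark3, Mark4, Sik1, Sik2, Sik3 and Snrk) were taken by symbol from a count table of 32726 Ensembl genes, and all 10 were present. Poly-A RNA was sequenced from neurons cultured from embryonic cortex of constitutive Nuak1 knockout mice (KO, 4 libraries) and of wild-type mice (WT, 4 libraries), grown for 5 days in serum-free medium. The tissue label reads "cortex or hippocampus". The mice were kept on a C57Bl/6JRj background, and the labels give no treatment, Cre or further allele in either genotype. The study names the Nuak1 line as Nuak1 tm1a(KOMP)Wtsi. It counts 4 animals per condition for RNA sequencing, but the labels do not link libraries to litters, so the p-values measure the spread between these 8 cultures. Libraries are written below as KO1 to KO4 and WT1 to WT4. Each carries a lane label (A or B) and a strain code, of which BJ occurs only in KO, BO and BQ only in WT, and BK in both. The sources do not explain the codes.

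LKB1, encoded by Stk11, is a master kinase that switches on the AMPK-related kinases by phosphorylating a threonine in the activation loop of their catalytic domain. In developing cortex this cascade acts at successive steps of axon formation. The BRSK kinases, also called SAD kinases, act in neuronal polarization, the MARK kinases phosphorylate microtubule-associated proteins, NUAK1 acts in axon branching, and the SIK kinases hold CRTC coactivators and class IIa histone deacetylases in the cytoplasm. The comparison asks which of these kinases were expressed beside Nuak1 and whether the transcript of any of them was higher where Nuak1 was lost.

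The activation-loop segment is shown because it carries the threonine that LKB1 phosphorylates in these kinases. LKB1 control of these kinases was not derived from the segment. Each line gives 42 bases of coding sequence, 5′ to 3′, from the NCBIM37 reference and GENCODE vM1 transcripts, with the codon of the LKB1-site threonine in capitals.
Brsk1: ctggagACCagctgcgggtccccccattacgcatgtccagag
Brsk2: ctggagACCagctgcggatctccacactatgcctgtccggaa
Mark1: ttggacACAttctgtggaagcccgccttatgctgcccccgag
Mark2: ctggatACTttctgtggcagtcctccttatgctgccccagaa
Mark3: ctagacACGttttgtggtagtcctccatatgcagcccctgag
Mark4: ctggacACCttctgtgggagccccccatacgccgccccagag
Sik1: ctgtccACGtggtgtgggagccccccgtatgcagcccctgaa
Sik2: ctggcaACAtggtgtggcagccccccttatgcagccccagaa
Sik3: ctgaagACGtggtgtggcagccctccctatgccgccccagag
Snrk: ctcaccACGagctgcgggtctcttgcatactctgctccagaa
Nuak1: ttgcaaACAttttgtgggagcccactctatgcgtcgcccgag

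Each segment was found as the only match of the motif L-x-T-x-C-G-S-x-x-Y-x-x-P-E (x, any residue) in its translated transcript. The threonine and the other fixed residues were thus required of every gene. The threonine lies at residue 189 of the translated Brsk1 transcript, 175 of Brsk2, 215 of Mark1, 208 of Mark2, 211 of Mark3, 214 of Mark4, 182 of Sik1, 175 of Sik2, 221 of Sik3, 173 of Snrk and 212 of Nuak1. Of the 14 residues encoded by the segment, 8 are fixed by the motif. The 4 Mark genes shared 11 with Nuak1, the Brsk and Sik genes shared 10, and Snrk shared only the 8 fixed ones. Nuak2, the closest relative of Nuak1, shared all 14. The codons were not shared to the same degree, since Mark1 matched Nuak1 at 32 of 42 bases and Snrk at 17. On NCBIM37 the segments lie at chr7:4650402-4650545 (Brsk1) and chr7:149170854-149171363 (Brsk2), each across exons 5 and 6 with an intron between. Those of Mark1 (chr1:186743508-186743549), Mark2 (chr19:7360333-7360374), Mark3 (chr12:112865371-112865412) and Mark4 (chr7:20028577-20028618) all lie in exon 8. Those of Sik1 (chr17:31987931-31987972), Sik2 (chr9:50725678-50725719), Sik3 (chr9:45985993-45986034), Snrk (chr9:122046641-122046682) and Nuak1 (chr10:83843525-83843566) lie in exons 6, 5, 5, 2 and 5. The Mark1, Mark2, Mark4, Sik1, Sik2 and Nuak1 segments are on the minus strand and the others on the plus strand.

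Library totals ranged from 31247078 to 67155004 counts. Levels are given as CPM, counts scaled to the library total. Nuak1 was measured at 2.47, 2.72, 1.96 and 2.35 CPM in KO1 to KO4 and at 51.6, 68.5, 82.6 and 75.3 CPM in WT1 to WT4. The KO libraries thus kept 3.42% of the mean WT level, and every library matched its genotype label. The libraries KO1 and WT1 stood apart from the other 6 on the first principal component (-28.2 and -29.5, against 0.44 to 23.6). Each genotype holds 1 of them, and both were run on lane A, as were KO4 and WT3. The tests of the kinase genes, their levels per kb and their sums are given with and without them. Neuron markers summed to 1912 to 3322 CPM over the 8 libraries, and no library lacked Rbfox3, Slc17a7 or Gad1. Slc17a7 was the only one of 6 glutamatergic markers with an unadjusted p under 0.05, at -0.32 in KO (unadjusted p = 0.0185, adjusted p = 0.39). Markers of other cell types were present as well, with sums of 481 to 1074 CPM for astrocytes, 442 to 558 CPM for the oligodendrocyte lineage, 2.6 to 31.3 CPM for microglia (highest in KO3) and 6.02 to 33.3 CPM for endothelium and fibroblasts. Tmem119 of microglia and Cldn5 of endothelium had at most 10 counts in any library, whereas Cx3cr1, Csf1r, C1qa and C1qb had log2 estimates of 1.15 to 1.46 and Aif1, the other tested microglial marker, had -0.21, none with an unadjusted p under 0.05. Log2 estimates ran from 0.0052 to 1.94 for the 5 astrocyte markers and from -0.17 to 0.66 for the 6 interneuron markers. None of these had an unadjusted p under 0.05 either. The summed level of every one of the 9 marker lists overlapped between genotypes.

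All 10 kinase genes were expressed in the cultures, whose bulk RNA cannot place them in neurons. None passed the test of Nuak1 KO against WT. In the fit across all 16272 tested genes (edgeR quasi-likelihood test, 1 surrogate variable, Benjamini-Hochberg adjustment), 0 of 10 passed an adjusted p of 0.05, against 0.0492% of all tested genes. None of the 10 had an unadjusted p under 0.05, against 10.6% of all tested genes, and none had CPM values that separated the genotypes, against 2.40%. DESeq2 also gave 0 of 10 at both p thresholds, as did the fit without KO1 and WT1. Estimates were above 0 for 5 genes and below 0 for the other 5, with a median log2 fold change of 0.020 beside 0.015 over all tested genes. The adjusted p-values ran from 0.493 to 0.986. Counts per library ranged from 365 (Sik1 in WT1) to 9511 (Brsk2 in WT2).

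**Figure D1:**
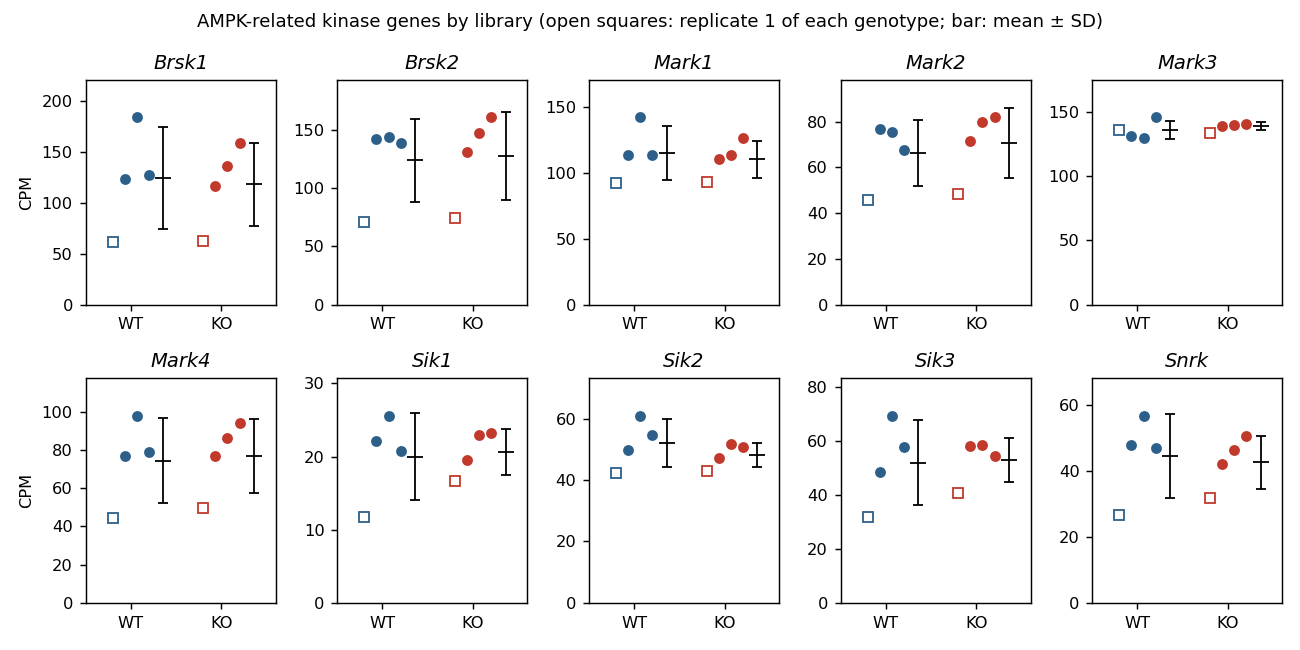
CPM of the 10 kinase genes in each library, WT in blue and KO in red, in the order of replicate number, with the mean ± SD of 4 libraries in black. The open squares are KO1 and WT1, which lie below the other 6 libraries for 9 of the 10 genes, and the genotypes overlap for every gene.

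The BRSK kinases phosphorylate targets at the axon-forming stage and at presynaptic release sites. Brsk1 (ENSMUSG00000035390, chr7:4690636-4715999 on GRCm38.p6) was measured at 62.7, 116, 136 and 159 CPM in KO1 to KO4 and at 61.1, 123, 184 and 127 CPM in WT1 to WT4. KO1 and WT1 were low by nearly the same amount, WT3 was the highest, and the genotypes overlapped. The log2 fold change, KO over WT, was -0.036 (SE 0.068, 95% interval -0.19 to 0.12, adjusted p = 0.878). The Brsk1 gene overlaps Tmem150b over 9168 bp, and Tmem150b itself had at most 0.168 CPM. Brsk2 (ENSMUSG00000053046, chr7:141949751-142004244) was measured at 74.5, 131, 147 and 161 CPM in KO and at 70.8, 142, 144 and 139 CPM in WT. WT2, WT3 and WT4 lay between 139 and 144 CPM, and WT1 far below them. Its log2 fold change was 0.044 (SE 0.076, interval -0.13 to 0.21, adjusted p = 0.867).

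The MARK kinases, the mammalian PAR-1 proteins, phosphorylate tau, MAP2 and MAP4 and so loosen their hold on microtubules. Mark1 (ENSMUSG00000026620, chr1:184896424-184999954) was measured at 92.7, 110, 113 and 126 CPM in KO and at 92.5, 113, 142 and 113 CPM in WT, with a log2 fold change of -0.073 (SE 0.068, interval -0.22 to 0.078, adjusted p = 0.725). WT3 alone exceeded the highest KO library. Mark2 (ENSMUSG00000024969, chr19:7275396-7341860) was measured at 48.4, 71.8, 80 and 82 CPM in KO and at 45.8, 76.8, 75.4 and 67.7 CPM in WT. It had the highest estimate of the 10, a log2 fold change of 0.070 (SE 0.073, interval -0.092 to 0.23, adjusted p = 0.759), and KO2 lay inside the range of the WT libraries. Mark3 (ENSMUSG00000007411, chr12:111574505-111656227) was the most even gene, at 134, 139, 140 and 141 CPM in KO and at 136, 131, 130 and 146 CPM in WT. KO1 and WT1 did not stand out for Mark3. Its SD of log2 CPM over the 8 libraries was 0.0556, where Brsk1, the most variable, had 0.577. The log2 fold change of Mark3 was -0.0048 (SE 0.057, interval -0.13 to 0.12, adjusted p = 0.986). Mark4 (ENSMUSG00000030397, chr7:19425102-19459330) was measured at 49.7, 77, 86.4 and 94.2 CPM in KO and at 44.3, 76.9, 97.9 and 78.6 CPM in WT, with a log2 fold change of 0.056 (SE 0.054, interval -0.064 to 0.18, adjusted p = 0.736). The lowest and the highest value of Mark4 were both in WT libraries.

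Sik1 is itself induced by cAMP and depolarization, whereas Sik2 and Sik3 are expressed more steadily in most tissues. Sik1 (ENSMUSG00000024042, chr17:31844248-31855804) had the fewest counts of the 10 and was measured at 16.6, 19.5, 22.9 and 23.2 CPM in KO and at 11.7, 22.1, 25.6 and 20.8 CPM in WT. Its WT libraries spanned the whole range of the KO libraries, and the log2 fold change was 0.066 (SE 0.093, interval -0.14 to 0.27, adjusted p = 0.833). Sik2 (ENSMUSG00000037112, chr9:50889644-51009132) was measured at 43, 47.2, 51.6 and 50.8 CPM in KO and at 42.3, 49.9, 61 and 54.7 CPM in WT. The 2 highest values were WT3 and WT4, and the lowest was WT1. Sik2 had the smallest p of the 10, with a log2 fold change of -0.13 (SE 0.060, interval -0.26 to 0.0062, unadjusted p = 0.0595, adjusted p = 0.493). Its estimate stayed below 0 in all 22 alternative fits, between -0.17 and -0.081, and the adjusted p was never under 0.338. The unadjusted p of Sik2 fell to 0.0427 without KO1 and to 0.0419 without WT2. The Sik2 gene overlaps Ppp2r1b over 9682 bp, and Ppp2r1b was measured at 33.6 to 48 CPM, so reads of the shared stretch may have been left out of Sik2 or assigned across the pair. Sik3 (ENSMUSG00000034135, chr9:46012820-46224194) was measured at 40.8, 58.2, 58.3 and 54.5 CPM in KO and at 31.9, 48.4, 69.3 and 57.7 CPM in WT, with a log2 fold change of 0.055 (SE 0.084, interval -0.13 to 0.24, adjusted p = 0.846). The KO libraries of Sik3 lay inside the WT range.

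Snrk encodes an LKB1-activated kinase without a close paralogue. The gene (ENSMUSG00000038145, chr9:122117266-122169702) was measured at 31.8, 41.9, 46.4 and 50.4 CPM in KO and at 26.5, 47.8, 56.7 and 46.9 CPM in WT. All 4 KO libraries lay inside the WT range, and the log2 fold change was -0.040 (SE 0.068, interval -0.19 to 0.11, adjusted p = 0.865).

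The 95% intervals, which are not adjusted for the number of genes, bound each estimate and are no limit of detection at the adjusted threshold. The highest upper bound among the 10 genes was that of Sik1, a fold change of 1.21, and the lowest lower bound was that of Sik2, a fold change of 0.834. These bounds rest on the surrogate variable, which follows the distance of KO1 and WT1 from the rest. The SEs were 0.054 to 0.093 with it and 0.083 to 0.34 without it, where the widest interval, that of Brsk1, ran from a fold change of 0.546 to 1.6. With KO1 and WT1 left out, the bounds over the 10 genes were 0.802 (Sik2) and 1.25 (Mark2). Within lane A (2 libraries per genotype, KO1 and WT1 among them) the estimates ran from -0.15 to 0.12 and within lane B from -0.17 to 0.072. In lane A no gene passed the adjusted threshold, Nuak1 included (-4.81, SE 0.36, unadjusted p = 5.23e-05 and adjusted p = 0.849 by edgeR). The Brsk1 interval in lane A ran from a fold change of 0.271 to 3.03, too wide to decide on changes of the size seen here. In lane B 0 of 10 passed, and the bounds were 0.761 (Snrk) and 1.22 (Sik3). A fit of genotype by lane, without a surrogate variable, holds 2 libraries of each genotype per lane. Its lowest unadjusted p among the 10 genes was 0.669 (edgeR). With the spread within lane A, this fit cannot show that the lanes agree.

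**Figure D2:**
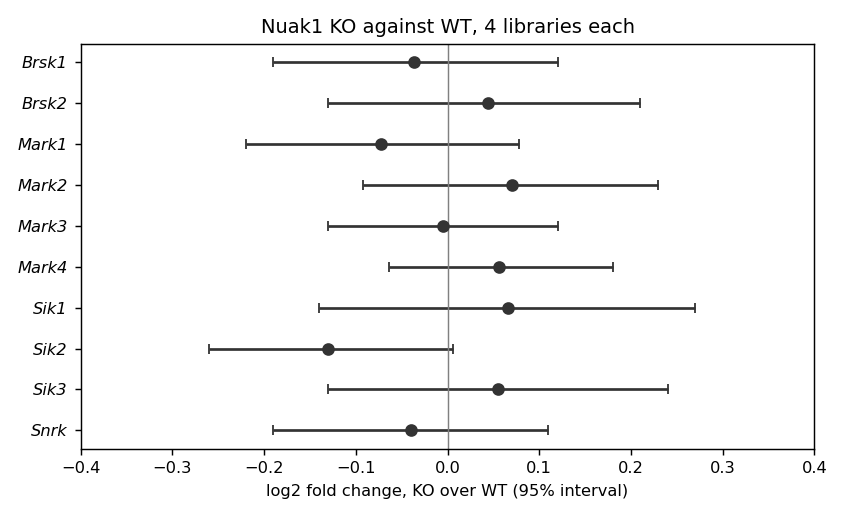
Log2 fold change, KO over WT, of the 10 kinase genes with 95% intervals from the fit across all genes (4 libraries per genotype). Every interval includes 0, and the Sik2 interval, -0.26 to 0.0062, reaches it only at its upper end.

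To compare genes with each other, CPM were divided by the length in kb of the gene's merged exons. In this scale Mark3 was the highest of the 10 in WT cultures, at 39.7 ± 2.09 CPM per kb (SD, n = 4). Brsk1 (30.2 ± 12.2), Mark1 (25.3 ± 4.46), Mark4 (24.4 ± 7.29) and Brsk2 (22.1 ± 6.33) followed. Mark3 exceeded Brsk1 in 7 of 8 libraries, but Brsk1 exceeded Mark1 in 6, and Mark1 exceeded Mark4 in only 2 of 8, so that the order of these neighbours does not hold beyond their spread. Sik2 (14.6 ± 2.2) was below Brsk2 and above Mark2 in all 8 libraries. Mark2 (8.35 ± 1.80), Snrk (7.71 ± 2.21) and Sik3 (7.30 ± 2.22) lay close together, with Snrk above Sik3 in 5 of 8 libraries. Sik1 was the lowest of the 10, at 4.44 ± 1.32 CPM per kb, and lay below Sik3 in all 8 libraries. Without WT1 the WT means were 39.7 for Mark3, 35.3 for Brsk1, 27.7 for Mark4, 26.9 for Mark1 and 25.3 for Brsk2, so Mark4 and Mark1 changed places, and the order of the other genes held.

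Nuak1 itself was at 12.4 ± 2.35 CPM per kb in WT cultures and 0.422 ± 0.0564 in KO cultures. In WT, the means of Mark3, Brsk1, Mark1, Mark4, Brsk2 and Sik2 exceeded that of Nuak1, and the other 4 kinase genes were lower, with or without WT1. That position depends on the length used. With longest-transcript lengths Mark2 exceeded Nuak1 as well (14.3 against 12.5), and with coding lengths only Mark3, Brsk2, Brsk1 and Mark1 did, Nuak1 being at 35.2 and Mark4 at 33. Nuak2 was at 0.983 ± 0.377 CPM per kb in WT and 1.06 ± 0.0578 in KO, below every one of the 10 kinase genes. By CPM, Nuak2 was measured at 3.94, 3.96, 4.37 and 4.3 in KO and at 2.88, 3.04, 6.04 and 3.45 in WT. The 4 KO libraries lay above 3 WT libraries and below WT3, with a log2 fold change of 0.12 (SE 0.19, interval -0.31 to 0.55, adjusted p = 0.859). Without WT3 it was 0.35 (SE 0.13, unadjusted p = 0.0189, adjusted p = 0.22).

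Summed by family, the MARK genes made up 53.1% of the per-kb level of the 10 genes in WT cultures, the BRSK genes 28.4%, the SIK genes 14.3% and Snrk 4.19%. Without WT1 the shares were 51.3%, 30.1%, 14.3% and 4.34%. The sum of the 10 was 138, 184, 199 and 214 CPM per kb in KO1 to KO4 and 132, 187, 224 and 194 CPM per kb in WT1 to WT4. The sums overlapped, and the means of the genotypes differed by -0.465 CPM per kb, KO minus WT, or by -2.7 with KO1 and WT1 left out. Without WT3, the highest library, the difference was 12.8 CPM per kb, where WT1 weighs more in its genotype mean than KO1 does. The SD between libraries was 32.9 in KO and 38.5 in WT with KO1, WT1 and WT3 all included. The difference without WT3 was not tested. The loss of Nuak1 amounted to 11.9 CPM per kb, against SDs of the sum of 14.9 in KO without KO1 and 19.5 in WT without WT1.

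**Figure D3:**
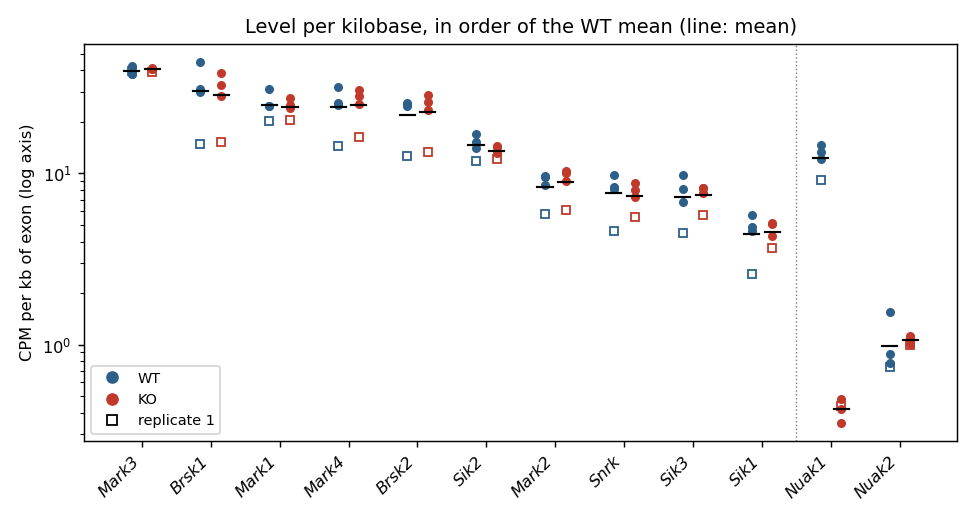
CPM per kb of merged exon (log axis) of the 10 kinase genes in order of their WT mean, and of Nuak1 and Nuak2, by library. Black lines are genotype means and open squares are KO1 and WT1. Nuak1 falls from 12.4 to 0.422 CPM per kb, while the 10 kinase genes keep overlapping values.

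For 9 of the 10 kinase genes, both KO1 and WT1 lay below all other 6 libraries. Brsk1 in KO1 was at 0.458 of the mean of the other KO libraries, and in WT1 at 0.422 of the mean of the other WT libraries. For Brsk2 the ratios were 0.509 and 0.5, for Mark4 0.579 and 0.524, and for Sik2 0.863 and 0.767. Mark3 was the exception, and its ratio was 0.961 in KO1 and 1 in WT1. Averaged over both genotypes, the log2 difference of these libraries from the other 6 had a median of -0.66 over the 10 kinase genes and of -0.053 over the 13636 tested genes with a transcript GC value. That difference moved with GC content across genes (Spearman rho -0.793, genes not being independent replicates). Genes of 42 to 46% GC had a median difference of 0.289, and genes of 58 to 62% GC a median of -1.07. The kinase genes ranged from 49.6% GC (Mark1) to 61.7% (Mark4), and 9 of 10 lay above the median gene (50.3%). After a smooth correction for GC content, chosen after seeing the data, the median difference of the 10 genes was -0.11. Brsk1 went from -1.15 to -0.10, Mark2 from -0.66 to 0.20, and Mark4, with the highest corrected value, from -0.83 to 0.35. Below 0 were 7 of the 10 genes, the lowest being Snrk (-0.47), Brsk2 (-0.40) and Mark1 (-0.35). What made KO1 and WT1 differ was not tested.

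**Figure D4:**
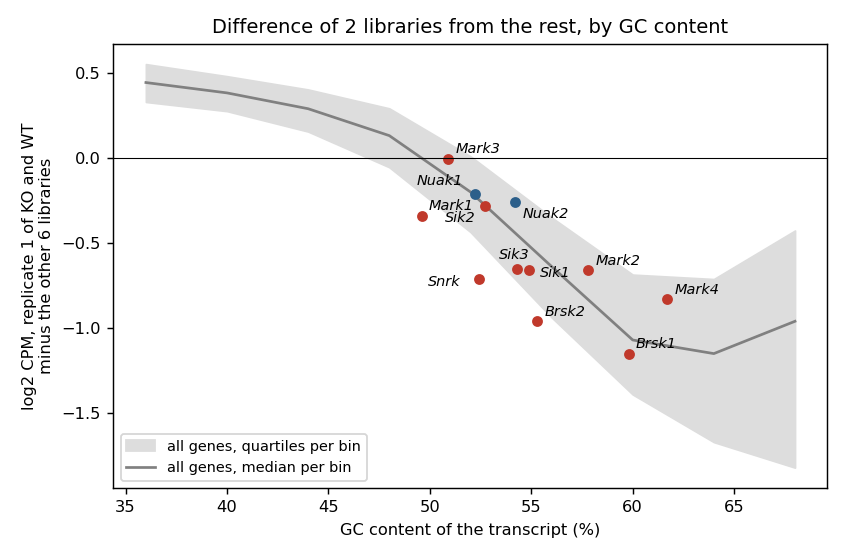
Log2 CPM of KO1 and WT1 minus the other libraries of their genotype, averaged over both genotypes, against the GC content of the transcript. The grey line and band are the median and quartiles of all genes in bins of 4% GC, red points the 10 kinase genes and blue points Nuak1 and Nuak2. Brsk1 lies on the line at 59.8% GC and -1.15, and Snrk lies below it at 52.4% GC and -0.71.

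Over all 8 libraries the 3 most variable kinase genes were Brsk1, Brsk2 and Mark4. That ranking rests on KO1 and WT1, since over the other 6 libraries the highest value was 1.58 times the lowest for Brsk1 but 1.22 times for Brsk2 and 1.27 times for Mark4, against 1.43 for Sik3. Their nearest patterns by Pearson r of log2 CPM over the 8 libraries were Bad, Zfand3 and Cdc37 for Brsk1, Pex16, Upf1 and Homer3 for Brsk2, and Kctd17, 1110065P20Rik and AI837181 for Mark4. Because KO1 and WT1 form a cluster of their own, r is given over the other 6 libraries only, as a description. It was 0.987, 0.991 and 0.988 for the genes near Brsk1, 0.988, 0.967 and 0.947 for those near Brsk2, and 0.992, 0.992 and 0.989 for those near Mark4. These genes were picked as the highest of 16272, and their values come from the same libraries as those of the kinase genes.

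The upstream activator was expressed as well, and its genes did not pass the test. LKB1 works as a complex with the pseudokinases STRADα and STRADβ (Strada, Stradb) and the scaffold MO25 (Cab39, Cab39l). None of these 5 genes passed the adjusted threshold (0.0492% of all tested genes did) or an unadjusted p of 0.05 (10.6% did). Stk11 was at 33.1 ± 12.8 CPM in KO and 31.5 ± 12.7 in WT (SD, n = 4), and its log2 fold change was 0.10 (SE 0.068, adjusted p = 0.636). The log2 fold change was 0.055 for Strada, 0.050 for Stradb, 0.050 for Cab39 and -0.030 for Cab39l, with adjusted p-values of 0.811 to 0.942. Of the other AMPK-family kinases, Nuak1 alone passed the adjusted threshold, at -4.89 on the log2 scale (SE 0.13, adjusted p = 1.24e-07). The catalytic AMPK subunits did not, at -0.058 for Prkaa1 (adjusted p = 0.768) and -0.17 for Prkaa2 (adjusted p = 0.741).

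Melk, a kinase of dividing progenitors that is not switched on by LKB1, was at 6.35, 4.80, 5.74 and 5.34 CPM in KO and at 4.70, 3.38, 2.14 and 4.82 CPM in WT. Its log2 fold change of 0.54 (SE 0.20) had an unadjusted p of 0.0212 and an adjusted p of 0.40, and KO2 and WT4 were nearly equal. The summed level of the dividing-cell markers lay between 152 and 258 CPM in the KO libraries and between 61.9 and 188 CPM in the WT libraries, and 3 of 5 (Top2a, Ccnb1 and Cdk1) had an unadjusted p under 0.05 with a positive estimate, where 10.6% of all tested genes had such a p in either direction. None passed the adjusted threshold (lowest adjusted p 0.36, Ccnb1), and the sums overlapped, with KO1 the highest and WT3 the lowest. The part of dividing cells in the Melk value was not tested, and in bulk RNA a change in the number of such cells and in RNA per cell cannot be told apart.

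The other fixed lists held regulators, substrates and partners of the kinases. Across all 61 list genes other than Nuak1, 0 passed the adjusted threshold and 6 had an unadjusted p under 0.05, 4 higher and 2 lower in KO, a share near that of all tested genes. Their median log2 fold change was 0.012. Of the 6, only Usp9x kept such a p with each library left out in turn. Without a surrogate variable the unadjusted p of Usp9x was 0.105 (edgeR), and with strain label as a term its estimate was -0.10. Among 13 other upstream regulators, Prkaca, the catalytic subunit of PKA that phosphorylates SIK kinases, had an estimate of 0.19 (unadjusted p = 0.0181, adjusted p = 0.387). Usp9x, a deubiquitinase that acts on NUAK1 and MARK4, had -0.32 (unadjusted p = 0.00382, adjusted p = 0.31), with 351, 259, 233 and 262 CPM in KO and 416, 286, 325 and 300 CPM in WT. KO1 and WT1 were the highest libraries of their genotypes for Usp9x, opposite to the kinase genes. The kinase Taok1 had -0.13 (adjusted p = 0.507).

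Of 10 MARK substrates and polarity partners, only Pard3, a polarity scaffold, had an unadjusted p under 0.05, with an estimate of -0.15 (unadjusted p = 0.0465, adjusted p = 0.467). Map2 of dendrites had -0.13 (adjusted p = 0.589) and Pard6g 0.11 (adjusted p = 0.632). Of 6 BRSK substrates, Tubg1, the γ-tubulin of microtubule-nucleating sites, had 0.17 (unadjusted p = 0.0453, adjusted p = 0.467), Wee1, a brake on mitotic entry, had 0.27 (adjusted p = 0.585, with an estimate of 0.13 without WT3 and 0.44 without WT4), and Tsc2 had 0.092 (adjusted p = 0.64). Of 7 SIK substrates, the coactivator Crtc1 had 0.18 (unadjusted p = 0.0368, adjusted p = 0.447), with 81.7, 162, 186 and 189 CPM in KO and 69.0, 158, 169 and 155 CPM in WT. Hdac4 had -0.16 (adjusted p = 0.513) and Crtc2 0.15 (adjusted p = 0.638), or 0.038 without WT3. The 14-3-3 proteins, which hold SIK substrates in the cytoplasm, had 0 of 7 with an unadjusted p under 0.05. Their lowest p-values were those of Ywhaz (0.20, adjusted p = 0.513), Ywhaq (0.082, adjusted p = 0.693) and Ywhah (0.082, adjusted p = 0.729). The Ywhaz call depends on the fit, with an unadjusted p of 0.0307 without KO1 and WT1, 0.00273 with 2 surrogate variables, 0.0208 with lane as a term and 0.0135 with a replicate block. Without WT3 its estimate was 0.31 and its adjusted p 0.0388. With 2 surrogate variables Ywhaq (0.14) and Ywhah (0.15) had unadjusted p-values of 0.0214 and 0.0311 by edgeR (adjusted p = 0.345 and 0.364). Without KO1 and WT1 Ywhah had 0.18 (unadjusted p = 0.0384) and Ywhaq 0.12 (unadjusted p = 0.156).

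CREB-CRTC target genes read out the pathway that SIK kinases restrain. All 9 had estimates below 0, with a median log2 fold change of -0.22, where 46.2% of all tested genes were below 0. None had an unadjusted p under 0.05, where 10.6% of all tested genes did. Nr4a3 was at 145, 139, 142 and 140 CPM in KO and at 156, 126, 201 and 163 CPM in WT, with an estimate of -0.22 (SE 0.11, adjusted p = 0.511). Nr4a1 was at 6.35, 12.8, 10.2 and 9.54 CPM in KO and at 6.69, 9.35, 26 and 14.1 CPM in WT, with an estimate of -0.42 (SE 0.24, adjusted p = 0.564). Per1 had -0.23 (SE 0.14, adjusted p = 0.588). Without WT2 these estimates were -0.32, -0.59 and -0.36, with unadjusted p-values of 0.00452, 0.0194 and 0.0128 by edgeR. WT3 was the highest of the 8 libraries for 9 of the 9 target genes, and it was also the highest for 7 of the 10 kinase genes. Without WT3 the median of the target genes was -0.039, 5 of 9 were below 0 and 0 had an unadjusted p under 0.05. Bdnf, for example, was at 15.8 CPM in WT3 and at 1.66 to 4.58 CPM in the other 7 libraries.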

How the data were processed

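The deposited table holds unnormalized read counts for each Ensembl gene in 8 libraries. The authors trimmed reads with cutadapt 1.10, discarded ribosomal reads, aligned to mm10 with STAR 2.5.3a and counted uniquely aligned reads with HTSeq 0.6.1p1 in union mode. The library kit keeps strand, but whether the counting used it, and so how overlapping genes were split, is not given in the sources used here. Read length is given differently in the labels and methods. Symbols were found for 23260 of 32726 identifiers. The test was edgeR 4.0.16 in R 4.3.3 (filterByExpr by genotype, TMM, robust quasi-likelihood F test, 1 surrogate variable by svaseq in sva 3.50.0, Benjamini-Hochberg adjustment at 0.05), and with DESeq2 1.42.0 as an alternative. The script was tested on simulated data. The members and gene lists were chosen with earlier results of these data known, so they are no independent support. Named genes were the 10 kinases, Nuak1, Nuak2, every gene of the LKB1 complex and other AMPK-family lists, the 3 smallest p-values of each other list, any list gene past the adjusted threshold, and the 3 nearest patterns of the 3 most variable kinases. Other genes named (Bdnf, Top2a, Ccnb1, Cdk1, Ppp2r1b, Tmem150b and 10 cell markers) were chosen after their values were seen. Lengths are merged GENCODE vM1 exons and positions RefSeq GRCm38.p6. Alternatives tried were the number of surrogate variables, lane, strain label and replicate number as terms, size factors, filters, DESeq2, single lanes, left-out libraries and, added after seeing the data, a replicate block without the surrogate variable and a GC correction.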

Additional observations from a re-analysis of the deposited data

Results flagged for a closer look

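Brsk2 in WT1 was 70.8 CPM, far below the other WT libraries, which ranged from 139 to 144 CPM. The gap took up 0.924 of the range of the 4 libraries, above the 95% critical value of Dixon's test. Of 24 groups of 4 values tested (10 kinase genes, Nuak1 and Nuak2 in each genotype), 1 passed, where chance gives about 1 in 20. KO1 was also the lowest KO library for Brsk2, at 74.5 CPM.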

How the results depend on the processing

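Under 22 alternatives, 0 of 10 kinase genes passed the adjusted threshold in any, and the adjusted p-values of the 10 genes ran from 0.305 to 1. The number of kinase genes with an unadjusted p under 0.05 was 1 with strain label as a term (Brsk1), 1 with the GC correction (Sik2, -0.17) and 0 to 1 with single libraries left out. The 61 list genes gave 6 at that threshold beside 10.6% of all genes. They gave 0 without a surrogate variable (2.52% of all genes) and in lane A alone (0.591%), 3 in lane B alone (11.2%) and with the GC correction (4.78%), 12 with strain label as a term (14.2%), and 2 to 8 with single libraries left out (5.45% to 15.6%), of which 2 or 3 without any one of KO1 to KO4 or without WT1. With strain label as a term, genotype is compared within the BK code alone (KO4 against WT2 and WT4), the only code both genotypes hold. KO4 was run on lane A and both of these WT libraries on lane B. That fit thus rests on 1 KO library, and genotype and lane cannot be told apart in it. Ywhaz passed the adjusted threshold without WT3 (0.31, adjusted p = 0.0388), and Nuak1 did not in lane A alone (-4.81, adjusted p = 0.849), where 2 libraries per genotype left 0 genes past it. Over all genes, 8 passed in the main fit, 188 with DESeq2, 45 without a filter, 91 without WT3, 99 in lane B alone and 2 with strain label as a term or GC correction. The order per kb kept 5 of 10 places with longest-transcript lengths, where Brsk1 (41.3) was above Mark3 (39.7), and 3 of 10 with coding lengths. The cause of the changes between fits was not tested.

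The direction of Mark2, Mark4 and Sik2 held in all alternatives. Of 220 kinase values, 31 changed sign, among them Brsk1 with strain label as a term, the highest of all 220 values (0.20). With 2 surrogate variables the log2 fold change was 0.025 for Brsk1, 0.051 for Cab39l and 0.043 for Prkaa2, and without one it was -0.0028 for Sik3. With strain label as a term it was 0.20 for Brsk1, 0.11 for Mark1, 0.018 for Mark3, -0.035 for Sik3, 0.013 for Snrk, 0.10 for Cab39l, 0.18 for Prkaa2, -0.023 for Tsc2 and -0.0039 for Crtc2. In lane A alone it was 0.030 for Mark3, -0.095 for Sik3, -0.13 for Nuak2, -0.026 for Stk11 and -0.0041 for Cab39. In lane B alone it was -0.076 for Brsk2, -0.080 for Sik1, 0.088 for Cab39l and 0.031 for Prkaa2. Without KO1 and WT1 it was 0.075 for Brsk1, 0.0048 for Mark1, 0.0013 for Mark3, -0.0044 for Sik3, 0.020 for Cab39l and 0.017 for Prkaa2. With the GC correction it was -0.014 for Brsk2, -0.015 for Sik3 and 0.00073 for Cab39l. With single libraries left out it ran from -0.10 to 0.044 for Brsk1, -0.014 to 0.081 for Brsk2, -0.036 to 0.017 for Mark3, -0.041 to 0.11 for Sik1, -0.0070 to 0.11 for Sik3, -0.0015 to 0.35 for Nuak2, -0.0014 to 0.11 for Strada, -0.10 to 0.075 for Cab39l and -0.27 to 0.031 for Prkaa2.

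The replicate numbers do not pair the samples, since same-numbered KO and WT libraries correlated in their deviations at 0.788, 0.00934, 0.237 and -0.011 for numbers 1 to 4. With the replicate number as a block, 0 of 10 kinase genes and 6 list genes had an unadjusted p under 0.05 (3 list genes with the block and no surrogate variable), 3 of all genes passed the adjusted threshold, and the log2 fold change was 0.022 for Brsk1, 0.0029 for Snrk and 0.00026 for Cab39l.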
